A study of Vitis vinifera with 2 samples.

Results

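A set of 1115 transposable elements (TEs) inside grapevine genes carried dense CHG methylation in leaf and little in embryogenic callus (EC). They were selected on their measured CHG levels, as genic TEs with CHG methylation of at least 60% in leaf and under 20% in EC. These CHG-losing TEs made up 4.05% of the 27500 genic TEs listed for CHG, and 8.82% (Wilson 95% interval 8.34 to 9.33, TEs taken as independent) of the 12643 genic TEs that reached 60% in leaf. Because the CHG values chose the set, its CHG levels are given as a description only. The series as a whole listed 184251 TEs. The set was compared with the other 11528 genic TEs that reached 60% in leaf and ended higher in EC. Of these, 4766 ended from 20% to under 60% and 6762 ended at 60% or more.

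Whole-genome bisulphite sequencing had been done on 1 library of young leaves and 1 library of proliferating EC of Vitis vinifera cv. Chardonnay. The EC had been raised from anthers of the same vines that gave the leaves and kept on solid medium in the dark, and several culture dishes were pooled, as were several leaves. The tables hold no expression values, so the tissue labels could not be checked against marker genes. With 1 library per tissue no test between tissues was possible, differences between plants, cultures and library preparations cannot be told apart from those between tissues, and the read depth behind each TE is unknown. The spread over chromosomes 1 to 19 is given in its place, and describes variation along the genome within these 2 libraries. The CG and CHH values come from the same libraries and partly the same reads as the CHG values, so they too are descriptions.

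Plants methylate cytosines in 3 sequence contexts, CG, CHG and CHH, where H is A, C or T. From work in Arabidopsis, CG methylation is copied after replication by MET1. CHG methylation is maintained mainly by the chromomethylase CMT3, which is recruited by a repressive histone methylation mark, and it is typical of silenced TEs. CHH methylation is placed anew, either by DRM2 under the guidance of small RNAs or by CMT2. Methylation in CG alone is common in the bodies of transcribed genes. The tables identify each TE by its position on the 12X assembly of the PN40024 genome, and the genes and TE families at these positions are not analysed here.

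Within the set, the median CHG level was 72.9% in leaf (quartiles 66.1 and 80.9), and 11.4% in EC (6.30 and 16.1). In leaf, 307 of the 1115 TEs were at 80% or more. In EC, 214 were under 5% and 54 were listed at 0. The TEs at 0 were mostly short, with a median of 168.5 bp and 32 of them under 200 bp. At the EC limit the division was arbitrary, since 136 genic TEs lay from 18% to under 20% and 152 from 20% to under 22%. Those just inside had a median CHH methylation of 9.48% in EC and those just outside 9.79%. At the leaf limit, 91 CHG-losing TEs lay from 60% to under 62%, and 100 further genic TEs under 20% in EC lay from 58% to under 60% in leaf. The latter had a median CHH methylation in EC of 7.58%, against 6.79% just inside.

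Within these TEs, CG was about as densely methylated in the callus as in the leaf. It was listed for 836 of the 1115 TEs, with a median of 90.3% in leaf (quartiles 84.8 and 94.1) and 90.5% in EC (82.6 and 94.5). The median of the EC minus leaf difference was -0.06 percentage points (quartiles -5.34 and 4.41). It was 0.90 (-2.68 and 4.34) in the 10081 genic TEs that ended higher and 0.96 over all 24007 genic TEs listed for CG. A TE of this set could therefore lose more than 40 percentage points of CHG methylation and keep the CG methylation it had. CG stayed within 10 percentage points in 638 of 836 TEs (76.3%), close to the share over all genic TEs (76.4%) and less than in those that ended higher (85.3%). At 80% CG or more were 720 TEs (86.1%) in leaf and 672 (80.4%) in EC, while the TEs that ended higher had 88.1% and 89.3%, and all genic TEs 77.9% and 78.96%.

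A minority of the set was lower in CG as well. CG was lower in EC by at least 10 percentage points in 127 TEs (15.2%), against 11.2% of all genic TEs, 9.50% of those that ended from 20% to under 60% and 4.83% of those that ended at 60% or more. It was higher by at least 10 percentage points in 71 TEs (8.49%), against 12.4% of all genic TEs. Differences of at least 20 percentage points downwards were found in 48 TEs (5.74%), against 4.36% of all genic TEs and 1.68% of those that ended higher. The set thus stood apart from TEs with a like leaf level more than from genic TEs at large. For those 48 TEs the leaf median was 90.4% CG and the EC median 60.8%. By chromosome, the median CG difference of the set ran between -5.20 (chromosome 16) and 2.50 percentage points (chromosome 11), and it lay below that of the TEs that ended higher on 17 of 19 chromosomes. The difference between the 2 medians, -0.96 percentage points, was smaller than its standard deviation over chromosomes, which was 1.53. It was larger than 1.53 with means in place of medians (-2.09) and among TEs with leaf CHG from 60% to under 75% (-1.78). The 1.53 is that of medians at the main limits, and none is given for these alternatives. Whether the difference exceeded 1.53 thus depended on these choices, while its sign did not.

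**Figure D1:**
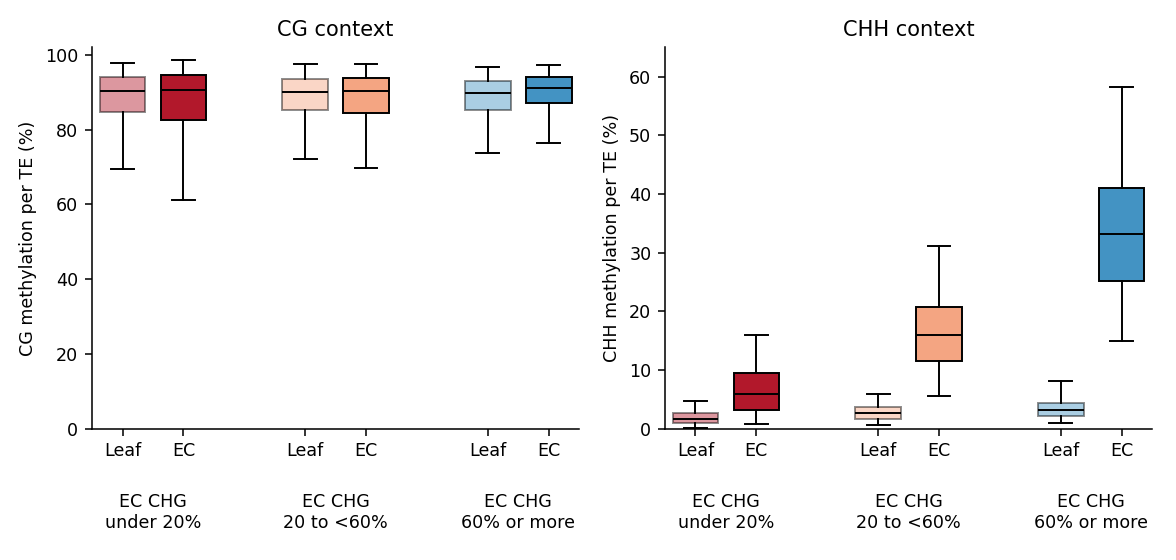
CG (left) and CHH methylation (right) per TE, in percent, in leaf (pale) and EC (dark) for genic TEs with leaf CHG of at least 60%, by their CHG level in EC. Boxes give the median and quartiles and whiskers the 5th and 95th percentiles over TEs; CG medians lie near 90% in every box, while CHH in EC has medians of 5.94%, 15.95% and 33.2%.

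CHH methylation separated the classes more than CG did. All 1115 CHG-losing TEs were listed for CHH, with a median of 1.70% in leaf (quartiles 0.94 and 2.73) and 5.94% in EC (3.18 and 9.51). The TEs that ended from 20% to under 60% CHG had medians of 2.61% in leaf and 15.95% in EC. Those that ended at 60% or more had 3.18% and 33.2%. The CHG-losing TEs thus had the lowest CHH level of the 3 classes in both tissues. The difference between EC and leaf had a median of 4.05 percentage points, against 21.4 in the genic TEs that ended higher and 11.02 over all genic TEs.

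Counts gave the same picture. CHH was higher in EC by at least 10 percentage points in 130 of the 1115 TEs (11.7%), against 52.8% of all genic TEs, 68.3% of those that ended from 20% to under 60% and 96.9% of those that ended at 60% or more. It was higher by any amount in 1010 TEs (90.6%), near the 92.9% of all genic TEs. It was lower in 97 (8.70%), against 2.53% of all genic TEs and 0.23% of those that ended higher, and equal in 8. At least 20% CHH in EC was reached by 24 TEs (2.15%), against 35.2% of all genic TEs. The median CHH level in EC was lower in the CHG-losing TEs on 19 of 19 chromosomes, from 4.45% on chromosome 7 to 7.56% on chromosome 4, against 21.1% to 28.9% in the TEs that ended higher. These 2 ranges did not overlap.

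The EC level of CHH followed that of CHG without a step at the limit used. Genic TEs that had reached 60% CHG in leaf were divided by their CHG level in EC. The median CHH level in EC was 3.83% in the 480 TEs under 10% CHG, 7.56% in the 635 TEs from 10% to under 20% and 11.4% in the 863 TEs from 20% to under 30%. It reached 40.4% in the 1011 TEs at 90% or more. Across the 1115 TEs of the set, Spearman's rho between the CHG and CHH levels in EC was 0.46, and across the 11514 that ended higher and were listed for CHH it was 0.74. These correlations are across TEs that share a library and reads, and TEs are not independent replicates. CG behaved differently, as rho between the CHG level in EC and the CG difference was 0.06 over the 836 TEs of the set with a CG value.

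**Figure D2:**
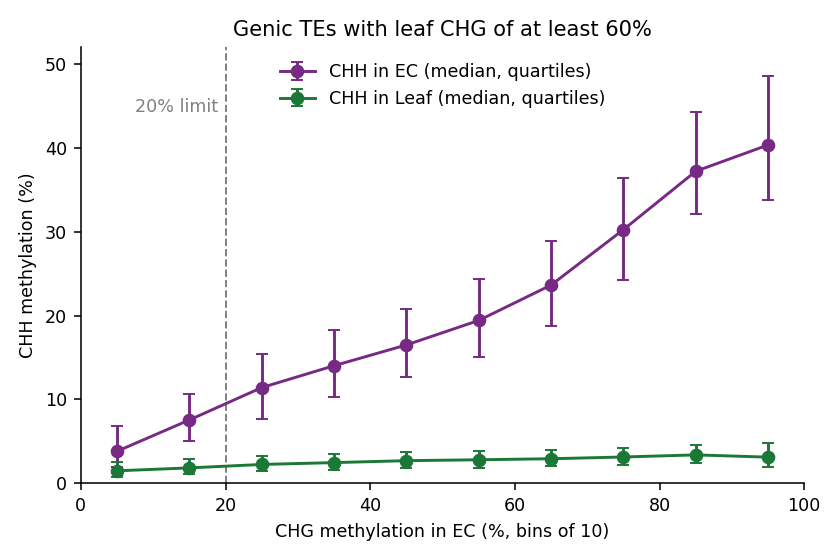
CHH methylation in leaf and EC (percent, median with quartiles over TEs) against CHG methylation in EC in bins of 10%, for the 12643 genic TEs at 60% CHG or more in leaf. The EC medians climb from 3.83% to 40.4% with no break at the dashed line at 20% CHG that bounds the CHG-losing TEs.

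CHH methylation was already lower in leaf. The leaf median of 1.70% in the CHG-losing TEs compares with 2.93% in those that ended higher, and it was lower on 19 of 19 chromosomes, at 1.36% to 1.93% against 2.63% to 3.21%. The leaf CHG level was also lower, with a median of 72.9% against 77.3%. At matched leaf CHG levels the CHH medians still differed. From 60% to under 65% leaf CHG, CHH in leaf was 1.59% in the 238 CHG-losing TEs and 2.46% in the 1186 that ended higher, and from 80% to under 85% it was 1.95% in 125 TEs and 3.21% in 2366. In EC the same groups had 6.79% against 24.4%, and 5.72% against 24.96%. Leaf CG, in contrast, was nearly equal, with medians of 90.3% and 89.95%, and the set was above the others on 11 chromosomes and below on 8.

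A further 7866 genic TEs had under 20% CHG in both tissues. Their median CG level, over the 4501 with a value, was 86.99% (leaf) and 86.9% (EC), and their median CHH level 0.14% and 2.44%. The CHG-losing TEs were thus higher in CHH than these in both tissues, though not at like CHG levels. Median CHG in the 7866 TEs was 1.19% in leaf and 1.43% in EC, against 72.9% and 11.4% in the set.

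The CHG-losing TEs were shorter than the other genic TEs with a like leaf level. Their median length was 460 bp (quartiles 207 and 958.5), against 814 bp in the genic TEs that ended from 20% to under 60% and 928 bp in those that ended at 60% or more. They were longer than genic TEs at large, whose median was 305 bp and of which 34.6% were under 200 bp, against 23.6% of the set. The median of the set was below that of the TEs that ended higher on 19 of 19 chromosomes. The share of genic TEs at 60% CHG in leaf that ended under 20% was lower at each greater length class. It was 21.98% of the 364 TEs under 100 bp, 11.7% of the 2795 from 200 to under 500 bp, 7.18% of the 2660 from 1000 to under 2000 bp and 1.29% of the 619 of 5000 bp or more. In the set, 73 TEs (6.55%) were 2000 bp or longer, near the 7.92% of all genic TEs and below the 24.6% of those that ended higher.

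A short TE holds fewer cytosines, so its level is less exactly known. Only 60.1% of the 589 CHG-losing TEs under 500 bp were listed for CG, against 91.6% of the 526 that were longer. The part of sampling in the length gradient was not tested. The CHH contrast was also found in long TEs, though slightly smaller than in TEs under 200 bp. Among TEs of 2000 bp or more, median CHH in EC was 7.95% in the 73 CHG-losing TEs, 17.1% in the 942 that ended from 20% to under 60% and 33.1% in the 1893 that ended at 60% or more. Among TEs under 200 bp the medians were 4.73%, 15.4% and 31.3%. The CG difference stayed near 0 in every length class of the set, with medians from -0.99 percentage points under 200 bp to 0.49 from 200 to under 500 bp.

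The share that ended under 20% is also given by leaf CHG level, as a description of the values that chose the set. It was 16.7% of the 1424 TEs with leaf CHG from 60% to under 65%, and 5.02% of the 2491 with leaf CHG from 80% to under 85%. It was higher again, at 8.33%, in the 972 TEs at 90% or more. Those at 90% or more that ended under 20% had a median length of 197 bp.

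**Figure D3:**
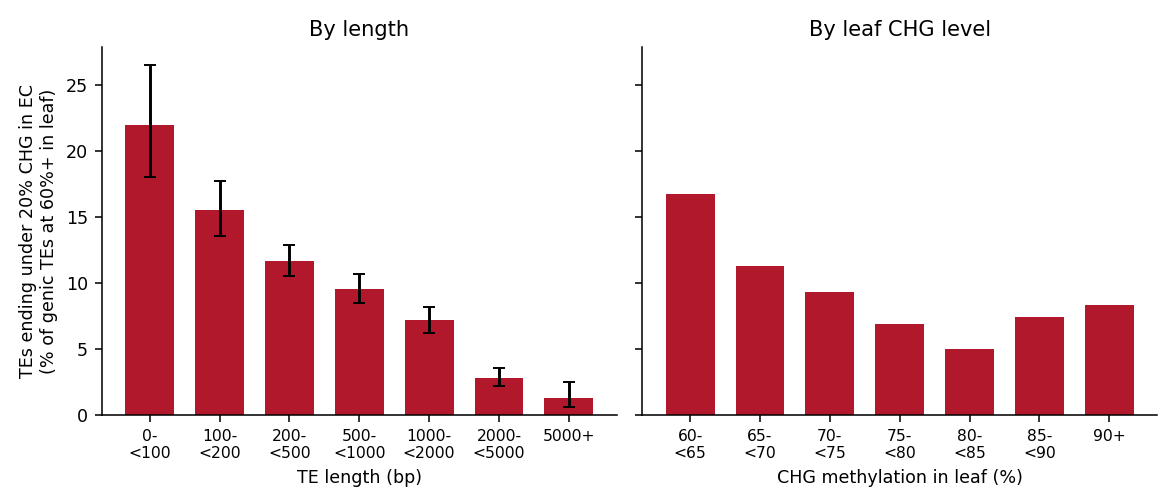
Share of genic TEs at 60% CHG or more in leaf that ended under 20% in EC (percent), by TE length in bp (left) and by leaf CHG level in percent (right). Error bars on the left are Wilson 95% intervals with TEs taken as independent, and the right panel describes values that chose the set; the share goes from 21.98% under 100 bp to 1.29% at 5000 bp or more, and has its lowest value, 5.02%, from 80% to under 85% leaf CHG.

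Neighbouring TEs tended to fall in the same class at short distances. For each genic TE at 60% CHG in leaf, the nearest other such TE that did not overlap it was found. For 277 of the 1115 CHG-losing TEs (24.8%, Wilson 95% interval 22.4 to 27.5, TEs taken as independent), that neighbour was also a CHG-losing TE. The same held for 10.4% of the TEs that ended from 20% to under 60% and for 4.57% of those that ended at 60% or more. For 529 CHG-losing TEs (47.4%) the neighbour had ended from 20% to under 60%, and for 309 (27.7%) at 60% or more. The share with a CHG-losing neighbour exceeded that of the TEs that ended higher on 19 of 19 chromosomes. It ran from 8.57% on chromosome 10 to 33.3% on chromosome 9, where 24 TEs were counted.

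The likeness of neighbours was strongest within 1 kb. Where the neighbour lay within 1 kb it was a CHG-losing TE for 200 of 583 CHG-losing TEs (34.3%), 9.39% of those that ended from 20% to under 60% and 2.18% of those that ended at 60% or more. From 1 to under 5 kb the 3 shares were 13.4%, 11.4% and 5.53%, and the Wilson intervals of the first (9.47 to 18.5) and last (4.40 to 6.94) did not overlap. From 5 to under 20 kb they were 13.7%, 12.3% and 8.57%, with overlapping intervals, and from 20 to under 100 kb 17.01%, 11.4% and 10.01%. These intervals take TEs as independent. TEs that are each other's nearest neighbour are all counted, so the intervals are too narrow and their overlap is no test. When TEs nearer than 5 kb were passed over, 14.3% of the CHG-losing TEs had a CHG-losing neighbour, 4.98 percentage points more than the TEs that ended higher, which was less than the standard deviation of that difference over chromosomes at all distances, 7.20. TEs within 1 kb of each other can be pieces of a single insertion or lie in the same gene, and reads can span both. How far each accounts for the clustering was not tested. Overlapping annotations were few, as 29 CHG-losing TEs (2.60%) overlapped another.

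CHG-losing TEs were found both singly and in runs, and made up 8.82% of the genic TEs at 60% CHG in leaf. No share in runs was computed for TEs scattered at that rate. The counts of single TEs and runs thus measure neither isolation nor clustering. Taking the genic TEs at 60% CHG in leaf in their order along each chromosome, 707 CHG-losing TEs had a TE of another class on both sides or ended a sequence. The other 408 (36.6%) formed 184 runs, of which 151 held 2 TEs, 28 held 3, 4 held 4 and 1 held 6. The runs had a median span of 3765 bp, and 106 of them spanned less than 5 kb. At a larger scale, 329 of the 433 windows of 1 Mb that held a genic TE at 60% CHG in leaf also held a CHG-losing TE. The 43 windows with the most CHG-losing TEs held 30.2% of them and 15.8% of the genic TEs at 60% in leaf. Among windows with at least 20 such TEs, the highest share was 10 of 28 (35.7%), between 1 and 2 Mb on chromosome 1. These windows were picked for holding many CHG-losing TEs, so their values exceed the average by construction and are no measure of clustering.

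By chromosome, the share of genic TEs at 60% CHG in leaf that ended under 20% went from 5.39% on chromosome 3, with 24 of 445, to 11.8% on chromosome 18, with 104 of 883. Sequences without a place on a chromosome held 22 CHG-losing TEs. TEs on the plus strand made up 52.3% of the set and 49.2% of those that ended higher.

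The run of 6 lay at chr17:1484806-1493762, with all 6 TEs on the minus strand. The first 5 lay within 2.18 kb, with a slight overlap between TEs 4 and 5, and the last 6555 bp further on. No other TE of the CHG tables lay within 10 kb on either side. TE 1, 844 bp long, went from 85.9% (leaf) to 3.49% CHG (EC) and from 83.8% to 63.9% CG. TE 4, of 424 bp, went from 88.5% to 1.04% CHG and from 93.5% to 48.1% CG. CHH in EC was 4.08% or less in the first 5, and at 1.89% and 1.25% it was below leaf in TEs 1 and 4. TE 6, of 218 bp, differed from them, with 72.4% and 15.2% CHG, 87.5% and 95.2% CG, and CHH of 5.77% in leaf and 41.6% in EC. TE 2 had CG of 96.3% in leaf and 89.8% in EC, with CHH of 2.70% in EC. TE 3 had no CG value, and CG in TE 5 went from 94.4% to 56.4%. The run thus held TEs with lower CG and hardly any CHH in EC. It also held TEs with high CG in EC, of which TE 2 had little CHH and TE 6 had much.

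**Figure D4:**
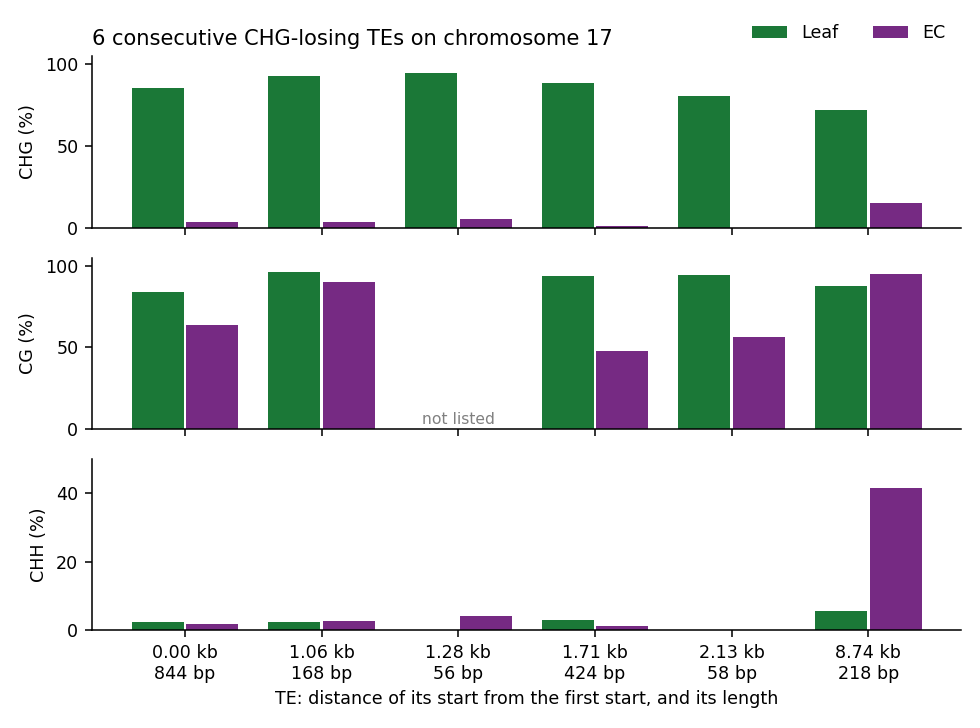
CHG, CG and CHH methylation (percent) in leaf (green) and EC (purple) of the 6 consecutive CHG-losing TEs on chromosome 17, labelled with the distance of each start from the first and with TE length. All 6 have CHG of 72.4% or more in leaf and 15.2% or less in EC, and TE 6 alone has high CHH in EC, at 41.6%.

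**Figure D5:**
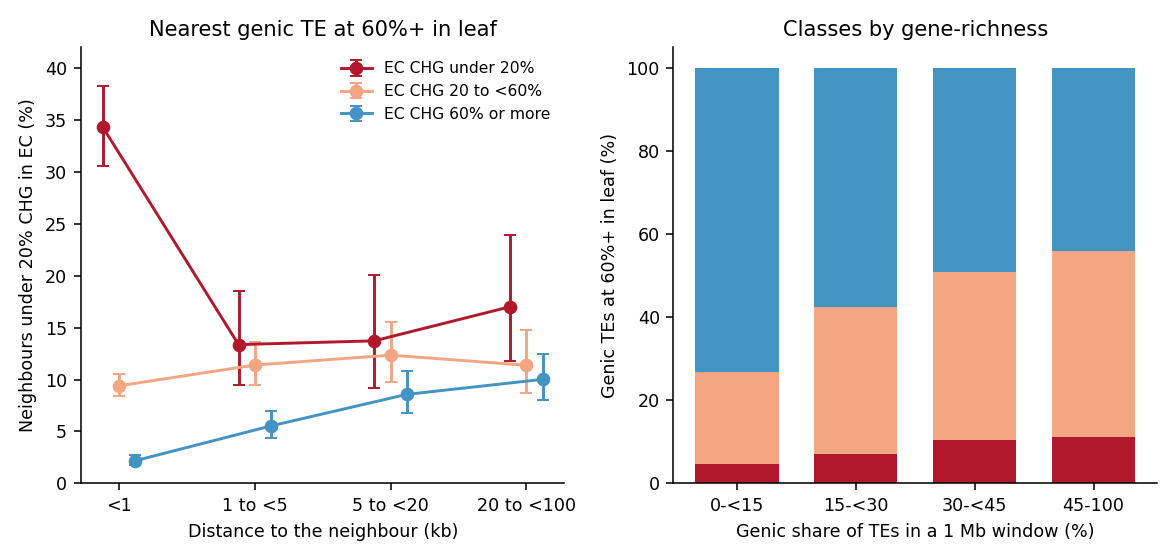
Left, share of TEs whose nearest genic TE at 60% CHG or more in leaf was a CHG-losing TE, by distance in kb and by the CHG class of the TE itself. Shares are in percent, with Wilson 95% intervals that take TEs as independent. The 268 TEs with a neighbour at 100 kb or more are left out. Right, classes of genic TEs at 60% CHG or more in leaf (percent, same colours) by the genic share of TEs in the surrounding 1 Mb window; the CHG-losing share, in red, goes from 4.71% to 11.05%.

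CHG-losing TEs lay in somewhat more gene-rich surroundings. Gene-richness was taken as the percentage of genic TEs among all other TEs listed for CHG within a 1 Mb window centred on the TE. Its median was 37.3% around the CHG-losing TEs (quartiles 26.1 and 46.2), 35.2% around those that ended from 20% to under 60% and 29.9% around those that ended at 60% or more. It was 33.6% around all genic TEs and 20.2% around intergenic TEs. The CHG-losing TEs were above the TEs that ended higher on 16 of 19 chromosomes, and the difference of 4.89 percentage points was slightly larger than its standard deviation over chromosomes, 4.23. In windows where under 15% of TEs were genic, 73 of 1549 genic TEs at 60% CHG in leaf (4.71%) ended under 20%, and where 45% or more were genic it was 322 of 2915 (11.05%).

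The order was the same in short and long TEs. Among TEs of 500 bp or more the share that ended under 20% was 3.37% where under 15% of TEs were genic and 7.98% where 45% or more were. Among TEs under 500 bp it was 7.01% and 16.6%. The CHG-losing TEs were set apart from the TEs that kept CHG methylation, and less from those that ended in between. Within 100 kb windows the genic share was 54.3% around the CHG-losing TEs, 57.1% around those that ended from 20% to under 60% and 43.8% around those that ended at 60% or more. In the outer 25% at either end of the chromosomes, measured to the last TE listed, lay 60.02% of the CHG-losing TEs, 55.01% of the in-between class and 50.8% of the TEs that ended at 60% or more.

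The closest TEs outside genes did not share the low CHG level. The nearest intergenic TE listed for CHG lay at a median distance of 11212 bp from a CHG-losing TE, and it had a median of 62.8% CHG (leaf) and 63.6% (EC). Where it lay within 5 kb, as for 189 CHG-losing TEs (16.95%), the medians were 62.2% and 57.3%, with CHH of 33.2% in EC. The median of the differences for these 189 was 2.05 percentage points, so the order of the 2 medians does not give the direction of the typical TE. The in-between class was close to the set. Its nearest intergenic TE had medians of 63.9% CHG in leaf and 63.8% in EC. It lay within 5 kb for 14.7% of that class, with medians of 65.7% and 58.5% CHG and 30.7% CHH in EC. The median difference there was 0.09 percentage points. Of the TEs that ended at 60% or more, 32.2% had an intergenic TE within 5 kb. These neighbours had CHG of 70.7% in leaf and 80.5% in EC and a median difference of 7.88 percentage points. The neighbours thus set the CHG-losing TEs apart from the TEs that ended at 60% or more, and hardly from the in-between class.

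Intergenic TEs with the same CHG limits differed from the genic ones in CG. Of 53137 intergenic TEs at 60% CHG or more in leaf, 796 (1.498%) ended under 20%. They had a similar median length, 461 bp, and similar median CHG levels of 72.8% (leaf) and 11.5% (EC). Their median CG level was 88.9% (leaf) and 80.03% (EC), with a median difference of -5.26 percentage points (quartiles -17.8 and 1.08), against -0.06 in the genic set. CG was lower by at least 20 percentage points in 134 of the 598 with a CG value (22.4%), against 5.74% of the genic set. Among TEs at 60% or more in leaf that ended higher, it was 1.68% of the 45173 intergenic and 1.68% of the 10081 genic TEs with a CG value. Median CHH in EC was 8.06%, against 5.94%. CHG loss of this size was thus more often joined by CG loss outside genes than inside them in these 2 libraries.

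Single TEs show the range within the set, with positions on the 12X assembly. The largest CHG fall among TEs of at least 1000 bp was at chr14:14190537-14191815 (minus strand), with CHG of 92.9% in leaf and 8.37% in EC, CG of 76.2% and 63.9%, and CHH of 4.79% and 7.11%. The next lay at chr13:7380100-7381590 (minus strand), with CHG of 93.8% and 10.5% and CHH of 0.71% and 7.46%. The third lay at chr19:17744815-17745881 (minus strand), with CHG of 91.5% and 8.18% and CHH of 4.20% and 8.10%. Neither of the last pair was listed for CG. After these came a TE at chr18:3651223-3652386 (plus strand), had CHG of 85.8% and 3.07% while its CG was 82.3% in leaf and 92.0% in EC. The last of the 5, at chr14:24428703-24430115 (plus strand), had CHG of 83.3% and 2.22%, CG of 88.5% and 83.5%, and CHH of 0.92% and 10.99%. The 3 of these TEs with a CG value were all above 60% CG in EC.

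The longest TE of the set, of 5211 bp, lay at chr18:5400928-5406138 (plus strand). It had 81.98% CHG in leaf and 14.7% in EC, with CG of 93.8% and 93.5% and CHH of 3.14% and 7.95%. CG was thus nearly equal in both tissues and CHH was low, as in most of the set.

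CG extremes were taken among TEs of at least 500 bp. The largest CG fall was at chr17:9340654-9341406 (plus strand), with CG of 85.7% in leaf and 35.7% in EC and CHG of 61.7% and 6.22%. The next was at chr6:10355404-10356578 (plus strand), with CG of 87.8% and 41.4% and CHG of 61.7% and 1.59%. CHH was higher in EC than in leaf in both, at 1.66% in leaf and 6.94% in EC in the former and 1.23% and 4.34% in the latter. The largest CG rise was at chr2:9132703-9133887 (minus strand), where CG was 64.4% in leaf and 100% in EC, with CHG of 76.0% and 8.05%. The second was at chr14:17295529-17297023 (plus strand), with CG of 75% and 100% and CHG of 78.8% and 17.1%. The number of cytosines behind these values of 100% is unknown.

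CHH extremes were taken in the same way. The highest CHH in EC was 34.4% at chr6:19853792-19854423 (minus strand), against 1.33% in leaf, with CHG of 65.2% and 11.8% and CG of 91.9% in both. The second was 22.1% at chr18:2387027-2387574 (minus strand), against 3.58% in leaf. In the former, CHH exceeded CHG in EC, as it did in 267 TEs of the set (23.9%), near the 23.3% of all genic TEs. CHH did so in 62.1% of those under 20% CHG in both tissues and 0.68% of those that ended higher. The CHG limits that define these groups largely fix how they differ here, so the shares are a description. The lowest CHH in EC was 0.27% at chr7:18491040-18491756 (minus strand), against 0.39% in leaf, with CG of 84.2% and 62.5%. The second lowest was 0.31% at chr15:197479-198162 (plus strand), against 0.25% in leaf, with CG of 89.5% and 96.2%.

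On either side of the EC limit lay TEs with like values. Just under it were a TE at chr17:16432072-16433182 at 19.98% CHG in EC and a TE at chr12:2017928-2019558 at 19.97%, with CHH in EC of 9.80% and 11.99%. Just over it were 2 short TEs at 20%, of 90 bp at chr1:3966046-3966135 and of 64 bp at chr1:5217110-5217173, with CHH in EC of 6.27% and 12.2%.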

How the data were processed

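Levels are those of 2 bisulphite libraries, 1 leaf and 1 EC, assigned from their tissue labels. From the methods given for the study, the authors aligned read pairs to the PN40024 12X assembly with BS-Seeker2, called methylation and averaged it per TE with cgmaptools, required effective coverage above 20 of each TE in leaf and EC, and called a TE genic if it overlapped a gene annotation by at least 1 bp. The deposited values are fractions between 0 and 1 in 6 tables (3 contexts, genic and intergenic TEs), printed here as percentages. They carry no read or cytosine numbers, so no coverage minimum could be varied and no interval from depth is given. Profiles averaged over all genes or TEs were not used.

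The lowest start in the tables was 0 and starts often equalled the previous end, so starts were read as counted from 0 and printed with 1 added. Length is end minus start. Tables were joined by position with Python 3.11.15 and pandas 2.3.3. Classes, neighbours (gap between TE ends, overlapping TEs skipped) and gene-richness were computed as described above, and the code was tested on simulated data. Shares have Wilson 95% intervals from scipy 1.17.1, which take TEs as independent although neighbours are alike. No test between tissues or across TEs was run.

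The members, classes and limits were chosen with earlier results of these data known. Single TEs were named by rule: the 5 largest CHG falls of at least 1000 bp, the longest TE, the 2 extremes each way of the CG difference and of EC CHH at 500 bp or more, the longest run, and the 2 TEs on each side of the EC limit. Alternatives were other CHG limits, means, TEs listed in all 3 contexts, chromosomes 1 to 19, TEs of at least 500 bp, the longest of overlapping TEs, more distant neighbours and 100 kb windows.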

Additional observations from a re-analysis of the deposited data

How the results depend on the processing

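Over 12 results, 78 values were recomputed. None changed sign, 63 moved by less than the spread and 15 by more (spread: a factor of 1.5 for counts, the Wilson interval for shares, and 1 standard deviation over chromosomes for medians and differences). With an EC limit of 10% the set held 480 TEs, 3.80% of those at 60% in leaf, with a CHH difference of 2.09 percentage points and a CHG-losing neighbour for 15.2%. With a leaf limit of 70% it held 681 TEs (7.18%). TEs of at least 500 bp gave 526 TEs (6.33%), and a CHG-losing neighbour for 15.97%, 10.7 percentage points more than in TEs that ended higher. TEs listed in all 3 contexts gave a share of 7.66% and a median length of 601 bp. Neighbours at 5 kb or more gave 14.3%, 4.98 percentage points above the others, and 100 kb windows a gene-richness of 54.3%. Limits on level, length and distance change counts by construction. The CG difference from TEs that ended higher ran from -2.09 (means) to -0.92 percentage points. With means, an EC limit of 10% or leaf levels from 60% to under 75% it exceeded 1.53, its spread over chromosomes. All spreads are those of the main setting. The CHH and length differences exceeded theirs under each alternative run. No paired analysis was possible because each tissue has 1 library.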

Other observations

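The opposite change was rare among genic TEs. Of 8487 genic TEs under 20% CHG in leaf, 77 (0.907%, Wilson 95% interval 0.727 to 1.13) were at 60% or more in EC, against 8.82% of the TEs at 60% or more in leaf that ended under 20%. The nearest genic TE of any leaf level was itself under 20% CHG in leaf for 18.03% of the 1115 CHG-losing TEs, for 15.5% of those that ended from 20% to under 60% and for 11.5% of those that ended at 60% or more.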
